A study of Homo sapiens with 4 samples.

Results

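Nuclear import, export and pore genes were examined in RNA-seq data of SK-N-BE(2), a line of human neuroblastoma cells, to ask how transcripts of the nuclear transport machinery responded when SAPCD2 was knocked down. The genes are the 52 protein-coding genes, of 64252 genes in the count table, whose GENCODE symbol names an importin alpha (KPNA1 to KPNA7), importin beta 1 (KPNB1), another importin (IPO), a transportin (TNPO1 to TNPO3), an exportin (XPO1 and XPO4 to XPO7, XPOT and CSE1L), RAN, a Ran-binding protein (RANBP1 to RANBP3) or a nucleoporin (NUP). Each was matched to the table by its Ensembl identifier. The control group, sh-Scb, held 2 libraries of cells with a scrambled shRNA, and the other group, sh-SAPCD2, held 2 libraries of cells with an shRNA against SAPCD2. No other treatment or time is given for either group, and the labels do not say which of the SAPCD2 hairpins was used; the study's heat map of these libraries names sh-SAPCD2 #1. The labels call the cells transfected, while the study's methods describe hairpins delivered by lentivirus and selection with puromycin. Both groups are 1 cell line, and nothing in the labels says that the libraries of a group came from separate cultures, so the p-values measure only the spread between these libraries, which may be technical.

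Proteins and RNA cross the nuclear envelope through nuclear pore complexes, which are built from many copies of each nucleoporin. Carriers of the importin beta family bind cargo and the pore, importin alpha links cargo with a classical nuclear localization signal to importin beta 1, and exportins carry cargo out. The small GTPase Ran, bound to GTP in the nucleus and to GDP in the cytoplasm, sets the direction. XPO1, also called CRM1, is the exportin for cargo with a leucine-rich export signal and the target of selinexor, a drug that the study used.

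The libraries held 25347900 to 31850997 counts, and 3 counts, taken as the smallest detectable amount, equaled 0.0955 to 0.119 CPM (a library's counts on a common scale, with TMM factors for its composition). This floor covers counting error only. SAPCD2 itself was measured at 83.6 and 82.2 CPM in sh-Scb replicates 1 and 2 and at 35.4 and 52.5 CPM in sh-SAPCD2 replicates 1 and 2, so it was lower in both knockdown libraries and less reduced in replicate 2 (log2 fold change −0.91, SE 0.19, adjusted p = 0.021). All 10 adrenergic neuroblastoma markers examined reached 1 CPM in every library, with a summed level of 6093 to 6236 CPM in sh-Scb and 8271 to 10237 CPM in sh-SAPCD2. Markers of other cells were low, at 9.52 to 14.1 CPM for 4 leukocyte genes, 0.0727 to 1.03 CPM for 3 endothelial genes and 3.40 to 4.58 CPM for 3 epithelial genes, with CD3E, KRT5 and CDH1 at 0. The 4 fibroblast and mesenchymal genes were all above 1 CPM and summed to 346 to 364 CPM in sh-Scb and 392 to 424 CPM in sh-SAPCD2; their part in the results was not tested.

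Transcripts of the transport machinery were more often lower than higher after SAPCD2 knockdown. Of the 52 genes, 50 passed the filter on low counts, and the remaining genes, KPNA7 and NUP210L, had 0 counts and at most 3 counts in any library. By edgeR's quasi-likelihood test, with p-values adjusted after Benjamini and Hochberg over all 18779 genes tested, 15 of the 50 (30%) were lower at an adjusted p under 0.05, 1 was higher and 34 were not called, against 12.5% of all tested genes lower and 12.4% higher. With an absolute log2 fold change over 1 required as well, 3 members were lower (NUP188, NUP62CL and NUP43; background 5.15%) and KPNA5 was higher (background 4.69%). The log2 fold change, sh-SAPCD2 against sh-Scb, was below 0 in 38 of the 50, with a median of −0.27, while the median over all tested genes was 0.017. In bulk libraries, a change in every cell and a change in part of the cells cannot be told apart. The 15 that fell were IPO9, CSE1L, XPO1, XPO6, XPO7, RAN, NUP43, NUP107, NUP133, NUP62, NUP62CL, NUP188, NUP205, NUP153 and NUP214. In each of them both sh-SAPCD2 values lay under both sh-Scb values. Genes called on these same values are likely to show this, so it adds no support. For members not called, groups that do not overlap are no support either. An exact two-sided permutation test on 2 against 2 libraries cannot go below p = 0.333. The share of all tested genes without overlap was not counted. The CPM value was lower in sh-SAPCD2 replicate 2 than in replicate 1 for 12 of these 15. SAPCD2 itself was lower in replicate 1. This order was not counted over all genes called lower, and the cause of the difference between the knockdown libraries was not tested.

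The size of this count depended on single libraries. Without sh-Scb replicate 1, 6 members were lower (background 5.81%), and without sh-Scb replicate 2 also 6 (background 5.8%), while 36 were lower without sh-SAPCD2 replicate 1 (background 20.2%) and 28 without sh-SAPCD2 replicate 2 (background 17.7%). The number of members higher was 1, 2, 3 and 6 in the same order (background 6.09%, 5.92%, 22.1% and 17.9%). Correcting libraries for the GC content and length of genes gave 27 lower and 6 higher members (background 18.9% and 21.1%). IPO9, CSE1L, NUP43, NUP133, NUP62 and NUP188 were called lower in each of these fits, and the other 9 lost their call without sh-Scb replicate 1 and also without sh-Scb replicate 2 (adjusted p from 0.0588 to 0.415 in edgeR). Of the 34 members that were not called, 15 had an unadjusted p under 0.05.

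**Figure D1:**
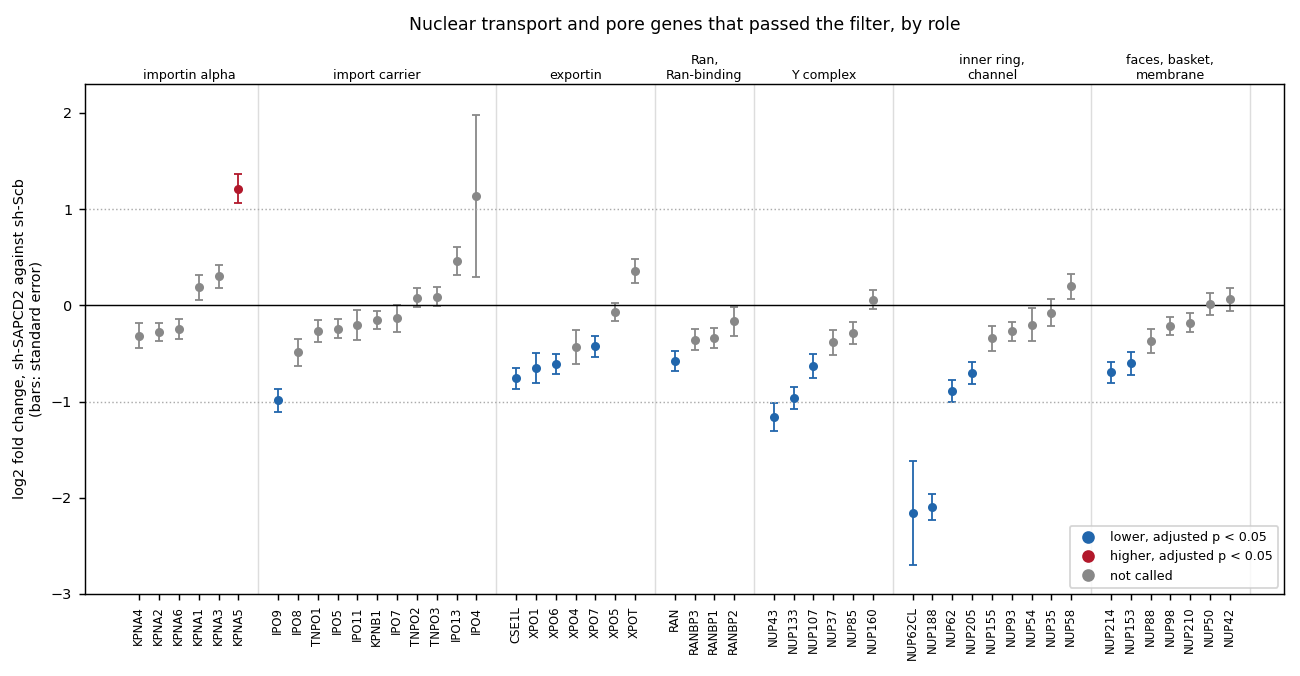
The vertical axis gives the log2 fold change of sh-SAPCD2 against sh-Scb for the 50 tested genes, grouped by role along the horizontal axis, with bars for 1 standard error and dotted lines at log2 fold changes of 1 and −1. The 15 genes called lower are blue and lie among the exportins, the import carriers, Ran and all 3 groups of nucleoporins, and KPNA5, the 1 gene called higher, is red.

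Short stretches of sequence are shown first, because they are what some called genes share with the hairpin or with each other. The sense strand and the guide (antisense) strand of sh-SAPCD2 #1, from the study's list of hairpins, are given 5′ to 3′, with capitals at the guide bases 2 to 8 (the seed) and at the sense letters that pair with them.
sh-SAPCD2 #1 sense: acctctggattccACCTTCAt
sh-SAPCD2 #1 guide: aTGAAGGTggaatccagaggt
Besides the seed match ACCTTCA, 3′ untranslated regions (UTRs) were searched for TCCACCT, which pairs with guide bases 5 to 11, for AGAGGTC, which pairs with the last base before the stem and the first 6 bases of the sense strand, and for CCACCTA and GAGGTCA, in which the last 6 letters of these are followed by A. These shifted words overlap each other, were searched on the transcript strand only, and came from an earlier scan of these same libraries, so the fold changes of genes that hold them are a description and no independent evidence. The following 30-base stretches of hg38 are sites in called genes, with the matching letters in capitals.
NUP188 3′ UTR, chr9:129006841-129006870, plus strand: tatactagatgaAGAGGTCAacagcaggca
NUP133 3′ UTR, chr1:229441692-229441721, minus strand: tgacttgtttttTCCACCTgaaatgtgtca
RAN 3′ UTR, chr12:130876529-130876558, plus strand: gcagtgtttgcTCCACCTTCATattggcta

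A shifted word was present in 19 of the 50 tested members (38.0%), close to the 33.9% of 13580 tested protein-coding genes. Of the 19 members with one, 7 fell (36.8%; IPO9, XPO6, RAN, NUP133, NUP43, NUP188 and NUP62) and the median log2 fold change was −0.31. Of the 31 without one, 8 fell (25.8%; CSE1L, XPO1, XPO7, NUP107, NUP205, NUP62CL, NUP153 and NUP214) and the median was −0.27. Among all tested protein-coding genes, 19.3% of those with a shifted word and 11.2% of those without one were lower. Genes with a word had longer 3′ UTRs, with a median of 2474 bases against 1232 in the members and 2770 against 845 among all protein-coding genes. Counting overlapping words separately, IPO9 held 6 and NUP43 4, but the central 16 bases of the NUP43 site also occurred in the 3′ UTRs of 95 other protein-coding genes and those of the IPO9 site in 5, whereas those of the sites printed for NUP188, NUP133 and RAN occurred in none. The seed match ACCTTCA was in 9 of the 50 members (18%) and in 12.5% of all tested protein-coding genes. Of the 9 members with it, 1 fell (11.1%; RAN), against 14 of the 41 without it (34.1%). Over all tested protein-coding genes, 16.6% of those with the seed match and 13.6% of those without it were lower. Runs of 11 letters that pair with the guide without a break were in 2 members and in 0.677% of tested protein-coding genes. That of RAN pairs with guide bases 1 to 11, and that of KPNA6, which was not called (log2 fold change −0.25), with bases 6 to 16. The 11 letters of RAN were in the 3′ UTRs of 13 tested protein-coding genes, of which 3 were lower, with a median log2 fold change of −0.13. RAN itself is in both of these counts, and 13.9% of all tested protein-coding genes were lower. Whether the hairpin acted at any of these sites was not tested.

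**Figure D2:**
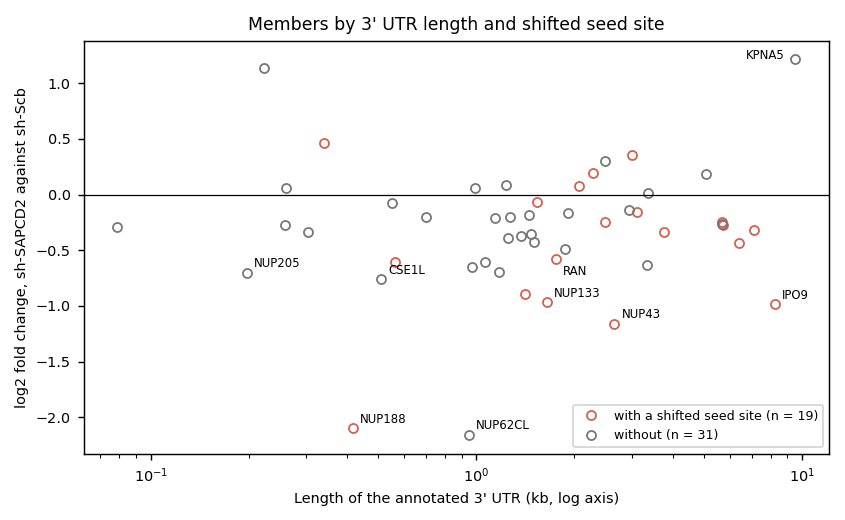
Each point is 1 of the 50 tested genes, with the length of its annotated 3′ UTR in kilobases on a log horizontal axis and its log2 fold change of sh-SAPCD2 against sh-Scb on the vertical axis, colored by whether the 3′ UTR holds a shifted word (19 with, 31 without). Both colors lie on both sides of 0, and the pair of genes with the lowest values, NUP188 and NUP62CL, are of different colors.

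Promoters were read from RefSeq for GRCh38.p14, as windows from 250 bases before to 50 after an annotated start. A gene could have several starts, and 45 of the 52 genes had at least 1 window (57 windows in all). The XPO1 and NUP62 stretches come from starts inside the gene's GENCODE span and not from its outermost end. The stretches printed hold motifs of called genes, which are in capitals, an E-box (CACGTG, bound by MYC and MYCN) in the first 3 and the NRF1 motif in the others.
XPO1, chr2:61537099-61537158, minus strand: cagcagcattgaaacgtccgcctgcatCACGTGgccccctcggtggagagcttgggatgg
RAN, chr12:130871937-130871996, plus strand: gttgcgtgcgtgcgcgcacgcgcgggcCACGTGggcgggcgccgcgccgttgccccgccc
NUP188, chr9:128947595-128947654, plus strand: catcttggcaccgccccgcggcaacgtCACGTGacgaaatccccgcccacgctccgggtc
NUP107, chr12:68686869-68686928, plus strand: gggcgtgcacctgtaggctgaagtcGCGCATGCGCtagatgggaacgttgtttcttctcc
NUP62, chr19:49929529-49929588, minus strand: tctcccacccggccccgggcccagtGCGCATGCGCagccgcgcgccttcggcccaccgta

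On both strands, an E-box was in 8 of the 45 genes (17.8%), and in 7.26% of all 35116 promoters and 10.9% of protein-coding genes. Of these 8, XPO1, RAN and NUP188 were called lower, and IPO4, IPO7, KPNA3, NUP50 and TNPO2 were not called. The NRF1 motif was in 4 of the 45 (8.89%), and in 1.24% of all promoters and 1.99% of protein-coding genes. Of these 4, NUP107 and NUP62 were called lower, and NUP50 and RANBP3 were not called. An E2F motif (TTTCCCGC, TTTGGCGC, TTTCGCGC or TTTGCCGC) was in IPO11, IPO7, NUP155 and RANBP3 (8.89%; 3.31% of all promoters and 5.40% of protein-coding genes) and in 0 of the 13 called-lower genes with a window. The CCAAT box was in 22 of the 45 (48.9%; 34.6% of all promoters and 42.1% of protein-coding genes) and 8 of those 13, and the CHR motif (TTTGAA or TTTAAA) in 14 of the 45 (31.1%; 24.0% of all promoters and 24.7% of protein-coding genes) and 4 of those 13. No transcription factor was measured on these promoters here, and a match is a run of letters and not a binding site.

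Of the 9 tested genes of the inner ring and channel of the pore, 4 were lower (background 12.5%) and 5 were not called. Their median log2 fold change was −0.34. The lowest of them at a high count was NUP188 (ENSG00000095319, chromosome 9, 128947699 to 129007096), an inner ring scaffold protein. Values of NUP188 were 149.6 and 152 CPM in sh-Scb replicates 1 and 2 and 38.8 and 31.9 CPM in sh-SAPCD2 replicates 1 and 2. The control libraries were nearly equal and the knockdown libraries far below them, and the mean fell from 151 ± 2.04 to 35.3 ± 4.84 CPM (SD, n = 2), which is 23.4% of control (log2 fold change −2.10, SE 0.13, adjusted p = 0.00201). NUP188 was called in each alternative fit, with a log2 fold change of −2.25 to −1.96. It overlaps SH3GLB2, which lies on the opposite strand and had 898 to 1854 counts per library, and the strandedness of the authors' counting is not given. An overlap with another annotated gene on either strand was present for 33 of the 50 tested members and 11 of the 15 that fell. Some of these overlapping genes had few or no counts.

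NUP205, a paralog of NUP188 in the inner ring, was lower too. The level of NUP205 was 383 and 389 CPM in sh-Scb replicates 1 and 2, against 257 and 218 CPM in sh-SAPCD2 replicates 1 and 2. Both knockdown values were lower (log2 fold change −0.70, SE 0.11, adjusted p = 0.00995). NUP62 belongs to the FG-repeat proteins that fill the central channel. NUP62 was measured at 75.7 and 79.5 CPM in sh-Scb replicates 1 and 2 and at 39.7 and 43.9 CPM in sh-SAPCD2 replicates 1 and 2. It fell to 53.9% of control, with replicate 1 the lower of the knockdown libraries (log2 fold change −0.89, SE 0.12, adjusted p = 0.0057). NUP62CL, a little studied gene similar to NUP62, had only 30 and 19 counts in sh-Scb and 6 and 5 in sh-SAPCD2, so its fold change is imprecise (log2 fold change −2.16, SE 0.54, adjusted p = 0.0335), and it was not called without sh-Scb replicate 1, without sh-Scb replicate 2, without sh-SAPCD2 replicate 2 or without the filter on low counts. NUP93, NUP155, NUP54, NUP58 and NUP35, the remaining 5 of 9 tested genes of the inner ring and channel, had log2 fold changes of −0.34 to 0.20 and were not called.

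The Y complex forms the outer rings of the pore and includes NUP107, NUP133, NUP160, NUP85, NUP43 and NUP37 here. Of these 6 members, 3 were lower (background 12.5%) and 3 not called, with a median log2 fold change of −0.51. Values of NUP43 were 74.8 and 73.4 CPM in sh-Scb replicates 1 and 2 and 36.9 and 29.5 CPM in sh-SAPCD2 replicates 1 and 2. NUP43 was more reduced than the other members of the complex in point estimate (log2 fold change −1.16, SE 0.14, adjusted p = 0.00499), and it overlaps PCMT1 on the opposite strand, which had 2616 to 3560 counts per library. NUP133 tethers the end of the complex stem. The level of NUP133 was 109 and 104 CPM in sh-Scb replicates 1 and 2, against 58.0 and 51.2 CPM in sh-SAPCD2 replicates 1 and 2. It fell to 51.2% of control, and the groups did not overlap (log2 fold change −0.97, SE 0.11, adjusted p = 0.00456). NUP107 was measured at 122 and 121 CPM in sh-Scb replicates 1 and 2 and at 85.7 and 71.8 CPM in sh-SAPCD2 replicates 1 and 2. NUP107, the binding partner of NUP133, fell to 64.6% (log2 fold change −0.63, SE 0.12, adjusted p = 0.0159). NUP37 was not called. Values of NUP37 were 27.8 and 28.6 CPM in sh-Scb replicates 1 and 2 and 20.7 and 22.5 CPM in sh-SAPCD2 replicates 1 and 2. Its knockdown values were below both control values (log2 fold change −0.39, SE 0.13, adjusted p = 0.0795). NUP85 and NUP160 had log2 fold changes of −0.29 and 0.06 and were not called. Differences between members of the complex were not tested.

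SEC13 and SEH1L are also subunits of the Y complex, but their symbols lie outside the rule, and they are named here after their values were seen. SEC13, which serves in the coat of secretory vesicles as well, rose. The level of SEC13 was 68.7 and 67.9 CPM in sh-Scb replicates 1 and 2, against 103 and 117 CPM in sh-SAPCD2 replicates 1 and 2. Both knockdown values were above both control values (log2 fold change 0.69, SE 0.11, adjusted p = 0.0102), and the call was lost without sh-Scb replicate 1 (adjusted p = 0.107) and without sh-Scb replicate 2 (adjusted p = 0.114). SEH1L was not called. SEH1L was measured at 46.2 and 43.7 CPM in sh-Scb replicates 1 and 2 and at 39.3 and 40.0 CPM in sh-SAPCD2 replicates 1 and 2. The groups did not overlap, but the difference was small (log2 fold change −0.18, SE 0.12, adjusted p = 0.299). Of these 8 genes, 3 were lower (background 12.5%), 1 higher (background 12.4%) and 4 not called.

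At the faces of the pore, 2 of the 7 tested genes were lower (background 12.5%). NUP214 lies on the cytoplasmic side, where exported cargo leaves. Values of NUP214 were 89.7 and 83.6 CPM in sh-Scb replicates 1 and 2 and 54.5 and 52.6 CPM in sh-SAPCD2 replicates 1 and 2. It fell to 61.7% of control (log2 fold change −0.70, SE 0.11, adjusted p = 0.00866). NUP153 is part of the nuclear basket. The level of NUP153 was 183 and 188 CPM in sh-Scb replicates 1 and 2, against 133 and 112 CPM in sh-SAPCD2 replicates 1 and 2. It fell to 65.9%, with the lower value in sh-SAPCD2 replicate 2 (log2 fold change −0.60, SE 0.12, adjusted p = 0.0165). NUP88, which binds NUP214, had values of 38.4 and 39.7 CPM in sh-Scb and 31.7 and 28.6 CPM in sh-SAPCD2 and was not called (log2 fold change −0.37, SE 0.13, adjusted p = 0.0784); it overlaps RABEP1 and RPAIN on the opposite strand. NUP98, an FG-repeat protein of both faces, was not called either. NUP98 was measured at 167 and 167 CPM in sh-Scb replicates 1 and 2 and at 147 and 141 CPM in sh-SAPCD2 replicates 1 and 2. Its knockdown values were lower (log2 fold change −0.21, SE 0.09, adjusted p = 0.154). NUP210, NUP50 and NUP42 had log2 fold changes of −0.18 to 0.06. Across the genes with a NUP symbol, 9 of 22 tested were lower (background 12.5%) and 13 not called, with a median of −0.36. This count leaves out nucleoporins with other symbols, such as SEC13 and SEH1L. Of the 28 tested carrier and Ran genes, RANBP2 of the cytoplasmic filaments among them, 6 were lower and 1 higher (background 12.4%), with a median of −0.24.

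Of the exportins, 4 of 7 were lower (background 12.5%) and 3 not called, with a median log2 fold change of −0.43. CSE1L returns importin alpha to the cytoplasm. Values of CSE1L were 314 and 306 CPM in sh-Scb replicates 1 and 2 and 197 and 168 CPM in sh-SAPCD2 replicates 1 and 2. It fell to 59.1% of control (log2 fold change −0.76, SE 0.11, adjusted p = 0.00762). XPO1 (ENSG00000082898, chromosome 2, 61476032 to 61538741) had the widest spread between the knockdown libraries among the called exportins. The level of XPO1 was 430.3 and 443 CPM in sh-Scb replicates 1 and 2, against 322 and 236 CPM in sh-SAPCD2 replicates 1 and 2. It fell from 437 ± 9.06 to 279 ± 60.4 CPM (SD, n = 2; log2 fold change −0.65, SE 0.16, adjusted p = 0.0303), and the log2 fold change was −0.44 without sh-SAPCD2 replicate 2 and −0.89 without sh-SAPCD2 replicate 1. The call was lost without sh-Scb replicate 1 (adjusted p = 0.080), without sh-Scb replicate 2 (adjusted p = 0.11) and without the filter on low counts (adjusted p = 0.097), and over all alternative fits the adjusted p of edgeR and DESeq2 ran from 0.00021 to 0.11.

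XPO6, the exportin for profilin and actin, and XPO7 were lower as well. XPO6 was measured at 142 and 139.8 CPM in sh-Scb replicates 1 and 2 and at 88.5 and 96.2 CPM in sh-SAPCD2 replicates 1 and 2. Replicate 1 was the lower knockdown library for XPO6 (log2 fold change −0.61, SE 0.10, adjusted p = 0.0108). Values of XPO7 were 167 and 159 CPM in sh-Scb replicates 1 and 2 and 129 and 113 CPM in sh-SAPCD2 replicates 1 and 2. XPO7 showed the smallest change of any called member (log2 fold change −0.43, SE 0.11, adjusted p = 0.0379). XPO4 was not called (log2 fold change −0.43), and neither was XPO5, the exportin for microRNA precursors (log2 fold change −0.07). XPOT, the exportin for transfer RNA, had values of 354 and 375 CPM in sh-Scb and 514 and 417 CPM in sh-SAPCD2 and was not called by edgeR (log2 fold change 0.35, SE 0.13, adjusted p = 0.0906), while DESeq2 gave an adjusted p of 0.043.

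**Figure D3:**
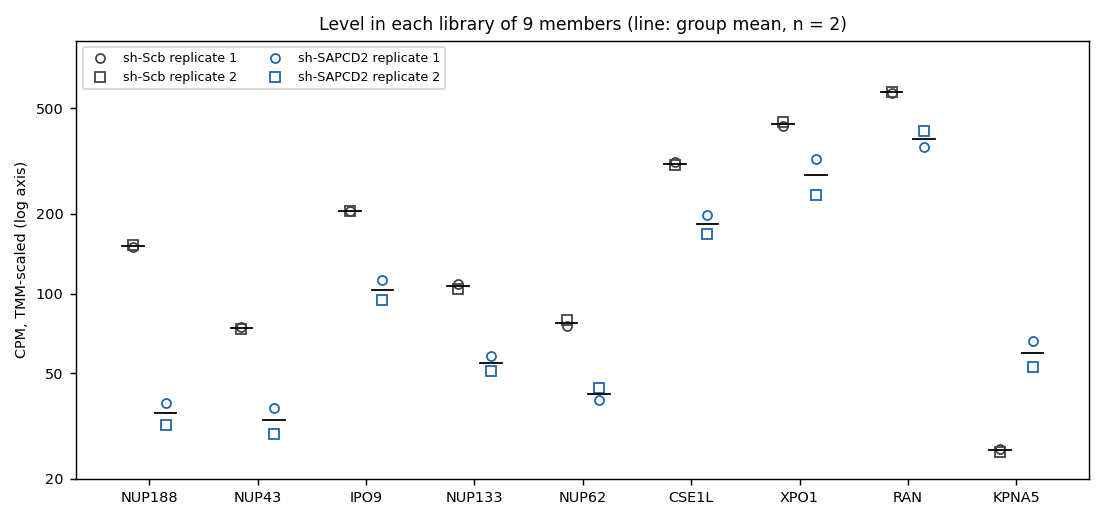
The vertical axis gives the TMM-scaled CPM on a log axis for 9 genes, with 1 point per library, circles for replicate 1 and squares for replicate 2, gray for sh-Scb and blue for sh-SAPCD2, and a line at each group mean (n = 2). The sh-Scb points nearly coincide for each gene, the sh-SAPCD2 points of NUP188, NUP43, IPO9, NUP133, NUP62, CSE1L, XPO1 and RAN lie below them and those of KPNA5 above, and XPO1 shows knockdown values of 322 and 236 CPM.

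Among the Ran genes, RAN (ENSG00000132341, chromosome 12, 130872037 to 130877678) was lower. The level of RAN was 573 and 575 CPM in sh-Scb replicates 1 and 2, against 359 and 411 CPM in sh-SAPCD2 replicates 1 and 2. The mean fell from 574 ± 1.11 to 385 ± 36.8 CPM (SD, n = 2), with the lower value in sh-SAPCD2 replicate 1 (log2 fold change −0.58, SE 0.10, adjusted p = 0.0133). RANBP1, which binds Ran-GTP in the cytoplasm, was not called. RANBP1 was measured at 239.7 and 260.0 CPM in sh-Scb replicates 1 and 2 and at 189.9 and 205 CPM in sh-SAPCD2 replicates 1 and 2. Both knockdown values were below both control values (log2 fold change −0.34, SE 0.10, adjusted p = 0.0592). RANBP3, a cofactor of XPO1, was not called either. Values of RANBP3 were 71.1 and 69.5 CPM in sh-Scb replicates 1 and 2 and 52.5 and 57.1 CPM in sh-SAPCD2 replicates 1 and 2. Its groups did not overlap (log2 fold change −0.36, SE 0.11, adjusted p = 0.0625). RANBP2, the large SUMO ligase on the cytoplasmic filaments, was measured at 258 and 256 CPM in sh-Scb replicates 1 and 2. In sh-SAPCD2 replicates 1 and 2 RANBP2 was at 261 and 197 CPM, so that 1 knockdown library set its difference. RANBP2 was not called (log2 fold change −0.17, SE 0.15, adjusted p = 0.443), and its log2 fold change was 0.024 without sh-SAPCD2 replicate 2. Its 7 near-identical RGPD paralogs held 848 to 865 counts in sh-Scb and 1406 to 1413 in sh-SAPCD2, against which the counting could have divided reads.

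Of the 11 import carriers, 1 was lower (background 12.5%) and 10 were not called. IPO9 (ENSG00000198700), a carrier of histones and other cargo, fell to 50.5% of control. The level of IPO9 was 205 and 204 CPM in sh-Scb replicates 1 and 2, against 112 and 94.3 CPM in sh-SAPCD2 replicates 1 and 2. The groups were well separated (log2 fold change −0.99, SE 0.12, adjusted p = 0.00463). KPNB1, importin beta 1, was not called. KPNB1 was measured at 584 and 580.0 CPM in sh-Scb replicates 1 and 2 and at 543 and 501 CPM in sh-SAPCD2 replicates 1 and 2. Its knockdown values were slightly lower (log2 fold change −0.16, SE 0.09, adjusted p = 0.268). IPO8, IPO13 and IPO5 were also not called in the main edgeR fit. Values of IPO8 were 112 and 108 CPM in sh-Scb replicates 1 and 2 and 88.0 and 69.0 CPM in sh-SAPCD2 replicates 1 and 2. Both knockdown values of IPO8 were lower (log2 fold change −0.49, SE 0.14, adjusted p = 0.0516), and DESeq2 called it lower (adjusted p = 0.018). The level of IPO13 was 36.5 and 33.9 CPM in sh-Scb replicates 1 and 2, against 43.5 and 53.2 CPM in sh-SAPCD2 replicates 1 and 2. Both knockdown values of IPO13 were higher (log2 fold change 0.46, SE 0.14, adjusted p = 0.0651), and DESeq2 called it higher (adjusted p = 0.033). IPO5 was measured at 437 and 416 CPM in sh-Scb replicates 1 and 2 and at 377 and 345 CPM in sh-SAPCD2 replicates 1 and 2. The knockdown values of IPO5, a carrier of ribosomal proteins and histones, were lower (log2 fold change −0.24, SE 0.10, adjusted p = 0.124). TNPO1, IPO7, IPO11, TNPO2 and TNPO3 had log2 fold changes of −0.27 to 0.09.

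IPO4 could not be read from its own count alone. It had 189 counts in sh-Scb replicate 1 but 1792 in sh-Scb replicate 2 and 1704 and 2849 in the sh-SAPCD2 libraries (log2 fold change 1.14, SE 0.85, adjusted p = 0.365). ENSG00000259522, a gene on the same strand that overlaps it, had 1854 counts in sh-Scb replicate 1, where IPO4 was low, and 200, 488 and 501 in the other libraries. The sums of both genes were 2043, 1992, 2192 and 3350, and the log2 fold change of the summed counts was 0.40 (SE 0.13, adjusted p = 0.073 by edgeR), an alternative chosen after the counts of IPO4 were seen. REC8 overlaps on the opposite strand, with 3775 to 6336 counts per library.

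**Figure D4:**
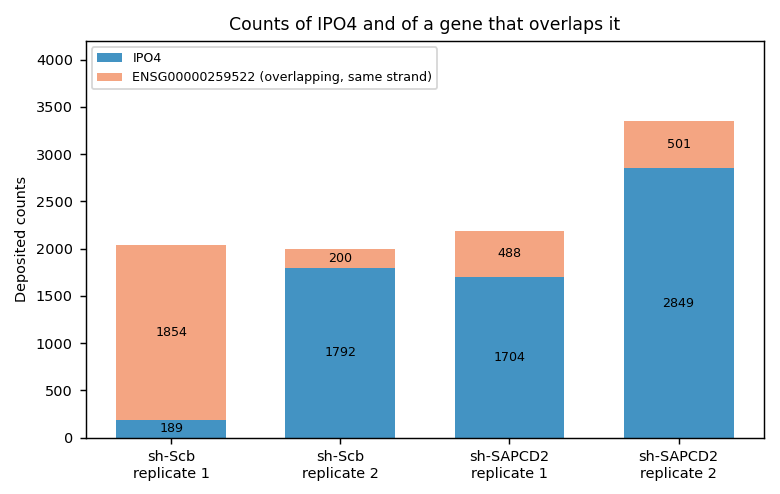
Bars stack the deposited counts of IPO4 (blue) and of ENSG00000259522, a same-strand gene overlapping it (orange), for each of the 4 libraries, with the vertical axis in counts. In sh-Scb replicate 1 the overlapping gene holds 1854 of the 2043 counts, and in the other libraries IPO4 holds most of them.

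The importin alpha genes held the single member that rose. KPNA5 (ENSG00000196911, chromosome 6, 116681187 to 116741867), an adaptor for cargo with a classical signal, was higher in both knockdown libraries. Values of KPNA5 were 26.0 and 25.3 CPM in sh-Scb replicates 1 and 2 and 66.4 and 52.7 CPM in sh-SAPCD2 replicates 1 and 2. The mean rose from 25.6 ± 0.442 to 59.5 ± 9.67 CPM (SD, n = 2; log2 fold change 1.21, SE 0.15, adjusted p = 0.00507), and it was called in each alternative fit, with a log2 fold change of 1.03 to 1.37. KPNA2, an importin alpha known to be abundant in dividing cells, was not called. The level of KPNA2 was 272 and 273 CPM in sh-Scb replicates 1 and 2, against 229 and 222 CPM in sh-SAPCD2 replicates 1 and 2. Its knockdown values were below both control values (log2 fold change −0.27, SE 0.09, adjusted p = 0.0779). KPNA4 was not called either. KPNA4 was measured at 80.8 and 80.9 CPM in sh-Scb replicates 1 and 2 and at 71.1 and 59.0 CPM in sh-SAPCD2 replicates 1 and 2. Its knockdown values were lower (log2 fold change −0.31, SE 0.13, adjusted p = 0.123). KPNA3 had higher values in the knockdown libraries and was not called. Values of KPNA3 were 45.5 and 47.0 CPM in sh-Scb replicates 1 and 2 and 60.7 and 53.3 CPM in sh-SAPCD2 replicates 1 and 2. The groups did not overlap (log2 fold change 0.30, SE 0.12, adjusted p = 0.124). KPNA6 and KPNA1 had log2 fold changes of −0.25 and 0.19 and were not called.

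To compare levels between these genes, CPM was divided by the length of the union of exons in kilobases. On this scale, KPNA2 was the most abundant importin alpha, with 44.9% and 45.3% of the summed importin alpha level in sh-Scb replicates 1 and 2 and 37.7% and 40.4% in sh-SAPCD2 replicates 1 and 2. KPNA5 held 2.72% and 2.67% of it in sh-Scb and 6.93% and 6.09% in sh-SAPCD2. The share of KPNA3 was 13.1% and 13.6% in sh-Scb and 17.4% and 16.9% in sh-SAPCD2, and that of KPNA6 was 20.8% and 20.5% against 18.1% and 18.3%. These shares did not overlap between groups, but they sum to 100% and so are not independent, and an exact two-sided permutation test on 2 against 2 libraries cannot go below p = 0.333. The summed level of importin alpha transcripts differed by less than its spread, at 82.0 ± 0.497 CPM per kilobase in sh-Scb and 78.5 ± 5.63 in sh-SAPCD2 (SD, n = 2).

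**Figure D5:**
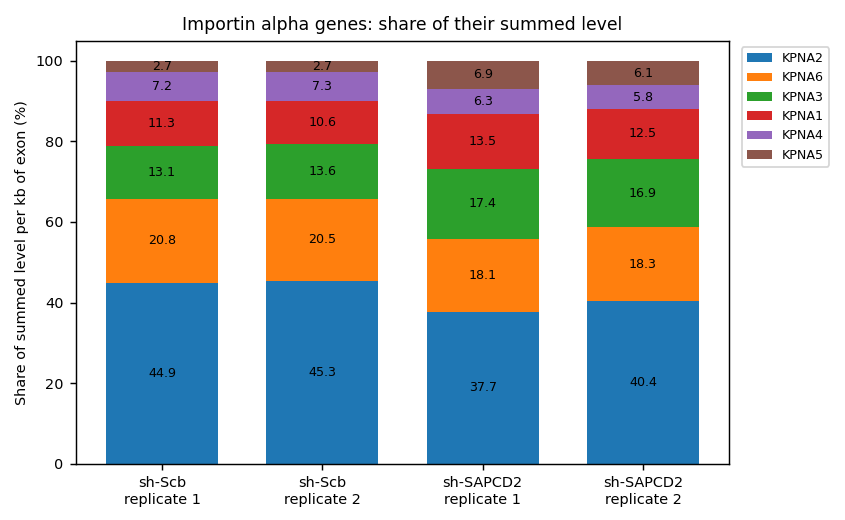
Stacked bars give, for each of the 4 libraries, the share in percent of the summed importin alpha level per kilobase of exon that comes from each of 6 genes (KPNA7 is at 0). KPNA2 takes the largest part of each bar, at 44.9% and 45.3% in sh-Scb and 37.7% and 40.4% in sh-SAPCD2, and the part of KPNA5 is larger in both sh-SAPCD2 bars.

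On the same per-length scale, RAN was the most abundant of the 52 genes when averaged over the 4 libraries, with 123 ± 0.238 CPM per kilobase in sh-Scb and 82.4 ± 7.88 in sh-SAPCD2 (SD, n = 2). IPO7 came next, at 90.3 ± 1.86 and 82.2 ± 15.5, and CSE1L after it, at 81.5 ± 1.53 and 48.1 ± 5.36. In sh-Scb the levels of these 3 genes differed by more than their spread, and in sh-SAPCD2 RAN and IPO7 did not. The order after RAN changed with the length used: with the longest transcript in place of the union of exons, RAN stayed at rank 1, RANBP1 took rank 2, IPO7 rank 3, KPNB1 rank 4 and CSE1L rank 5. The summed level of the inner ring and channel genes was 63.4% of control, that of the 6 Y complex genes 70.2% (81.9% with SEC13 and SEH1L), of Ran and the Ran-binding genes 72.0%, of exportins 81.5%, of the faces, basket and membrane genes 82.7%, of import carriers 92.2% and of importin alpha 95.7%, in group means.

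Of 34 genes for further nucleoporins, the Ran cycle, mRNA export and the SUMO pathway at the pore, compiled from general knowledge with earlier results of these data known, 10 were lower (29.4%, background 12.5%) and 2 higher (background 12.4%), with a median log2 fold change of −0.18. Fewer of them were lower with 1 sh-Scb library left out and more with 1 sh-SAPCD2 library left out. The share of all tested genes called lower moved in the same way. RANGAP1 makes Ran hydrolyze GTP on the cytoplasmic side. The level of RANGAP1 was 153 and 141 CPM in sh-Scb replicates 1 and 2, against 48.2 and 64.7 CPM in sh-SAPCD2 replicates 1 and 2. It was lower in both knockdown libraries (log2 fold change −1.38, SE 0.16, adjusted p = 0.00438). POM121 and POM121C, near-identical pore membrane proteins whose reads the counting could have divided between them, were lower. POM121 was measured at 115 and 115 CPM in sh-Scb replicates 1 and 2 and at 69.0 and 69.2 CPM in sh-SAPCD2 replicates 1 and 2. The replicates of each group were nearly equal (log2 fold change −0.74, SE 0.10, adjusted p = 0.00591). Values of POM121C were 82.6 and 84.3 CPM in sh-Scb replicates 1 and 2 and 40.4 and 46.5 CPM in sh-SAPCD2 replicates 1 and 2. The groups of POM121C did not overlap either (log2 fold change −0.94, SE 0.12, adjusted p = 0.00554). SENP2, a SUMO protease found at the pore, rose. The level of SENP2 was 71.2 and 73.7 CPM in sh-Scb replicates 1 and 2, against 130.2 and 124 CPM in sh-SAPCD2 replicates 1 and 2. Both knockdown values were above both control values (log2 fold change 0.81, SE 0.10, adjusted p = 0.00519), but the call was lost without sh-Scb replicate 1 (adjusted p = 0.0585), and that of POM121 without sh-Scb replicate 1 or replicate 2 (adjusted p = 0.0608 and 0.0611).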

How the data were processed

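RNA-seq was performed on 4 libraries of SK-N-BE(2) cells, 2 with sh-Scb and 2 with sh-SAPCD2, grouped by the condition in the labels. The authors aligned reads to hg38 with HISAT2 2.2.0, quantified them with StringTie and deposited whole-number counts per Ensembl gene, not scaled for library size. How coverage became counts, whether strand was used and how multi-mapped reads were treated are not given in the sources used here, so overlapping genes and close paralogs may have exchanged reads. The table had 0 columns of other samples.

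Counts were scaled by TMM and tested in edgeR 4.0.16 (R 4.3.3) by quasi-likelihood, after filterByExpr (minimum count 10, minimum total count 15), with Benjamini-Hochberg adjustment over 18779 genes. The standard error (SE) is the absolute log2 fold change divided by the square root of F. CPM values are TMM-scaled. Positions, exon lengths and 3′ UTRs came from GENCODE 44, and promoters from RefSeq. On simulated counts of 18779 genes for sh-SAPCD2 against sh-Scb, with 200 genes changed by a log2 fold change of 1, edgeR recovered 137 with 4 unchanged genes called, and DESeq2 recovered 128 with 3. The alternatives comprised DESeq2 1.42.0, edgeR scaled by DESeq2's size factors or by library totals alone, edgeR without the low-count filter or on genes averaging 1 CPM or more, a replicate block, a loess correction for GC content and length (span 0.3), the last pair together, an adjusted p of 0.01, the longest transcript for lengths, and each library left out in turn.

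Members and lists were chosen with earlier results of these data known, so no set test was run. Full values are given for XPO1, KPNA2, KPNB1, RAN and SAPCD2, for up to 4 members of each role with the smallest p, for members past an absolute log2 fold change of 1 and an adjusted p under 0.05, and for the 5 other pathway genes with the smallest p, of which 1 is not reported here. IPO4, XPOT, SEC13 and SEH1L were named in full after their values were seen.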

Additional observations from a re-analysis of the deposited data

How the results depend on the processing

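With 2 libraries per group, calls rest on little spread information, and low counts limit NUP62CL and the genes under the filter. The number of members lower, 15, was 27 with the correction for GC content and length, 25 with the replicate block and that correction together, and 6 to 36 with 1 library left out. The number higher, 1, was 3 with DESeq2 (background 16.5%) and 2 with the replicate block (background 15.2%). It was 6 with the GC and length correction (background 21.1%) and 6 with block and correction together (background 20.8%). This number also changed with 1 library left out, as given above. With an absolute log2 fold change over 1, the 3 lower members became 2 to 5 and the 1 higher became 1 to 2 with 1 library left out, and 2 were higher with the replicate block. Of the other pathway genes, 10 were lower and 2 higher in the main fit. Fewer of each were called with 1 sh-Scb library left out, and more with 1 sh-SAPCD2 library left out. With the GC and length correction 6 were higher (background 21.1%), and also 6 with the block added (background 20.8%). The cause was not tested, except that leaving out a library also leaves fewer samples. The lone sample of a group is then assumed to vary like the other group.

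The median log2 fold change of the members stayed below 0 in each alternative, from −0.34 to −0.19. With 1 library left out, the log2 fold change of RANBP2 (−0.17) ranged from −0.39 to 0.024, the latter without sh-SAPCD2 replicate 2. With the longest transcript as length, the change in share, sh-SAPCD2 minus sh-Scb, was −1.29 percentage points for KPNA6 (−2.47 with the union of exons), 3.10 for KPNA3 (3.82) and 2.92 for KPNA5 (3.82). The labels number the replicates alike in both groups, but libraries that share a number deviated from the means of their groups with a correlation of −0.019, so the numbers were not taken as pairs. With the replicate block, 16 members were lower (background 14.4%), all 15 and IPO8. IPO4 was the added higher member with the block, with a log2 fold change of 1.80. DESeq2 called 14 of the 15, and the remaining one, NUP62CL, had no adjusted p there.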
